A study of Mus musculus with 8 samples.

Results

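The HoxB cluster genes described here are Hoxb2, Hoxb3, Hoxb4, Hoxb5, Hoxb6, Hoxb7, Hoxb8 and Hoxb9, 8 of the 28001 features counted in each library. They were chosen by symbol, as listed features of the cluster, and their levels were read from unique molecular identifiers (UMIs, which count captured RNA molecules) in cells with at least 3000 UMIs and at most 10% mitochondrial UMIs. In all, 15504 UMIs of the 8 genes were counted in mesenchymal cells of 8 libraries. The other protein-coding members, Hoxb1 and Hoxb13, were near 0, with at most 11 and 5 UMIs in any library.

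The study followed the descendants of Hic1-expressing cells through mouse forelimb development with droplet single-cell RNA-seq (10x Chromium). The strain was C57BL/6J, and pregnant dams received 7.5 mg tamoxifen by gavage at embryonic day (E) 10. Of the 8 libraries, 6 held tdTomato+ cells sorted from Hic1CreERT2/CreERT2;Rosa26LSLtdTomato/tdTomato forelimbs: whole forelimbs at E11.5, E12.5, E13.5 and E14.5, and 2 segments at E16.5, a proximal segment around the elbow (distal stylopod and proximal zeugopod) and a distal segment (distal zeugopod and autopod, the future hand). The other 2, named whole 1 and whole 2, held tdTomato+ and tdTomato- forelimb cells at E11.5 and are labelled as replicates. Cells positive for blood and endothelial surface antigens were removed by the sort, and forelimbs of a litter were pooled. The whole-limb labels give the genotype only as Hic1;tdTomato. Both Hic1 alleles carried the CreERT2 insertion in the sorted groups, the label came from cells that expressed Hic1 around the time of tamoxifen, and no group without tamoxifen was analysed here.

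Hox genes encode homeodomain transcription factors and lie in 4 clusters, HoxA to HoxD, whose order along the chromosome follows the order of their expression along the body. HoxB genes are known for patterning the hindbrain and the anterior trunk and for expression in the lateral plate, the tissue that gives rise to limb mesenchyme, while the HoxA and HoxD clusters are known for patterning the limb along its length. Meis1 and Meis2 encode cofactors of Hox proteins and mark the proximal limb bud, and Hoxa13 and Hoxd13 mark the autopod.

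The 8 genes lie in a row on the plus strand of chromosome 11 (GRCm38, GENCODE M21 annotation) within 82.6 kb, from Hoxb9 (chr11:96271457-96276595) through Hoxb8 (chr11:96281905-96285315), Hoxb7 (chr11:96286623-96290162), Hoxb6 (chr11:96292476-96301569), Hoxb5 (chr11:96303336-96306121), Hoxb4 (chr11:96318267-96321638) and Hoxb3 (chr11:96323326-96347930) to Hoxb2 (chr11:96350525-96354012). All 8 are protein-coding, with 2 to 4 exons. Their homeoboxes, the coding stretch shared by all Hox genes, are 180 bases long, and between the 28 pairs of members 58.9% to 88.9% of these bases are the same. The homeoboxes of Hoxb2, Hoxb6, Hoxb7 and Hoxb9 are printed from GENCODE transcripts because they hold the member with the most UMIs (Hoxb2), the closest pair (Hoxb6 and Hoxb7) and the member placed opposite to the other 7 in whole-limb clusters (Hoxb9). Capitals mark 12 bases that encode part of the helix that reads DNA.
Hoxb2, transcript bases 601 to 780: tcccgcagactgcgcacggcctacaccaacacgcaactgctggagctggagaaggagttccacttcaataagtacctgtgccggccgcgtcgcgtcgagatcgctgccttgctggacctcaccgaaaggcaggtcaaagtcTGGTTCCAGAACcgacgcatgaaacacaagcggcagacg
Hoxb6, transcript bases 442 to 621: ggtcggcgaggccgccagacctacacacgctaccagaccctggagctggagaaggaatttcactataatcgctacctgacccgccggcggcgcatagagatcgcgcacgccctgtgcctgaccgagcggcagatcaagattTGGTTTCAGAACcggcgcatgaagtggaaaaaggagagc
Hoxb7, transcript bases 514 to 693: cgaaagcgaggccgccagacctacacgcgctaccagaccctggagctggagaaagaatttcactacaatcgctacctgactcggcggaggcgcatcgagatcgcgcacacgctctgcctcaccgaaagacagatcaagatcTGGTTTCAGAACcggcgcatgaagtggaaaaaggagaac
Hoxb9, transcript bases 638 to 817: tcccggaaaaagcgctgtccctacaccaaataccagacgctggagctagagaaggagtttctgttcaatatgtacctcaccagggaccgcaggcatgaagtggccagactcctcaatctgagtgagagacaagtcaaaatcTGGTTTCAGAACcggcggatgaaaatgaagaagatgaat
Over whole transcripts the members are distinct: no stretch of 60 bases of the 8 genes occurs in another gene, except 9 of 1905 in Hoxb6. Antisense transcripts are a further limit, because Hoxb3os overlaps exons of Hoxb2 and Hoxb3, Hoxb5os overlaps an exon of Hoxb5 and runs across Hoxb6, and whether the counting used strand is not given in the sources used here. The level of Hoxb3os lay between 1.21 and 7.43 CPM (UMIs scaled to 1000000 UMIs of the same cells) in the 8 libraries and was highest in E11.5 sorted cells.

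Promoter sequence (250 bases before to 50 after the start) came from RefSeq on GRCm38.p6 for Hoxb4 and Hoxb8, the 2 of the 8 members that matched the sequence table used here, and both are shown. Their E16.5 proximal levels stood 2.72- and 4.70-fold above those at E14.5. Capitals mark matches to 3 motifs, searched on both strands. The nuclear receptor half-site was searched as AGGTCA. The core promoter box was searched as TATAAA. The site of Pbx-Hox pairs was searched as TGATNNAT.
Hoxb4, chr11:96318017-96318316, plus strand: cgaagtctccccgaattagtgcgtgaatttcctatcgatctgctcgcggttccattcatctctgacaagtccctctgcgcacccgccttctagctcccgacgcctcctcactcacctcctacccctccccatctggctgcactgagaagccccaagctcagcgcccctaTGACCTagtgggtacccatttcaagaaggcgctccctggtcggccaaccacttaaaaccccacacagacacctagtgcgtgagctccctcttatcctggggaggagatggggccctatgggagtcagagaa
Hoxb8, chr11:96281655-96281954, plus strand: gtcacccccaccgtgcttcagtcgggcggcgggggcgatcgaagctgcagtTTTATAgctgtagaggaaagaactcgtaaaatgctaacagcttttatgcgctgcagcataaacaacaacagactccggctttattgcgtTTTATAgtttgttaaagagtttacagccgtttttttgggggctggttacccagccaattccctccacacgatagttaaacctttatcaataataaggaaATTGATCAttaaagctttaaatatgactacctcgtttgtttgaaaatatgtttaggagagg
The Hoxb4 promoter held AGGTCA on the minus strand, at position -81 from the start, a motif found in 16.3% of 32851 promoters of this length. The Hoxb8 promoter held TATAAA on the minus strand at -110 and -199, as 13.6% of promoters did in at least 1 place, and TGATNNAT on the minus strand at -11, as 8.85% did. These are matches of letters and not measured sites.

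The 8 libraries held 57469 barcodes, of which 53085 cells passed both filters, 3165 to 11109 per library. Median depth was 6788 to 18473 UMIs per cell, with the deepest cells at E14.5 and E16.5, and library totals ran from 32957305 to 236408650 UMIs. The E11.5 sorted library lost the most barcodes, 1079 of them for fewer than 3000 UMIs, and kept 74.2%. No 2 libraries shared more than 54 barcodes. The tdTomato transcript stood at 3.88 and 4.21 CPM in whole 1 and whole 2 and at 427 to 1341 CPM in the sorted ones, as the sort implies. Counts of whole 1 and whole 2 differed by more than sampling noise (chi-square per gene 18.5, near 1 if they had been 1 library). Levels are given as CPM over mesenchymal cells, that is, cells left after clusters named as myogenic, endothelial or epithelial from their markers were set aside, with 95% Poisson intervals. No cluster was named as blood. A small unnamed E11.5 cluster led by the haemoglobin genes Hbb-y and Hbb-bh1, with 44, 32 and 4 cells in whole 1, whole 2 and the sorted library, stayed in these values with 50, 17 and 0 HoxB UMIs. It also had 5 epithelial markers raised, and at resolution 2 an epithelial-like cluster of 16 and 21 whole-limb cells stood apart, so epithelial cells stayed in the E11.5 values too. These intervals cover counting error only, and they are too narrow as errors of a stage or segment, since each sorted group is 1 library. In such sums, fewer cells that express a gene and less RNA per cell cannot be told apart. UMIs were not divided by transcript length, so each gene was compared with itself across libraries.

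The summed level of the 8 genes was highest in whole-limb cells at E11.5, lowest in sorted cells at E13.5, and high again in the proximal segment at E16.5. It was 50.6 CPM (48.6 to 52.7) in whole 1 and 61.2 CPM (59.0 to 63.5) in whole 2. Among sorted cells the E11.5 library was at 15.0 CPM (13.6 to 16.4), E12.5 at 5.77 (5.08 to 6.52), E13.5 at 1.89 (1.52 to 2.34) and E14.5 at 13.7 (13.1 to 14.3), and at E16.5 it was 35.2 (34.4 to 36.0) in the proximal and 3.74 (3.45 to 4.06) in the distal segment. Neighbours in this order had separate intervals except E14.5 and E11.5 sorted. The share of mesenchymal cells with at least 1 HoxB UMI gave nearly the same order: after every cell was thinned to 3000 UMIs it was 11.03% and 12.3% in the whole-limb libraries, then 2.82%, 1.40%, 0.588% and 2.88% from E11.5 to E14.5, and 8.39% and 1.01% in the proximal and distal segments. Before thinning, when deeper libraries show more cells with a UMI, these shares were 19.7%, 20.7%, 7.38%, 3.56%, 1.27%, 9.22%, 27.6% and 4.25%. As a background for these shares, the cluster with the lowest share in the E16.5 proximal library, led by Rit2 and Ednrb, had 0.429% of cells with a HoxB UMI at 3000 UMIs (median depth before thinning 16569 UMIs). A cluster led by Hoxa13 and Ephb1 at E14.5 had 0.173%. The E13.5 share of 0.588% (0.412 to 0.813) lay above both values, and the intervals of these clusters (0.0109 to 2.37 and 0.0209 to 0.622) overlap it.

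**Figure D1:**
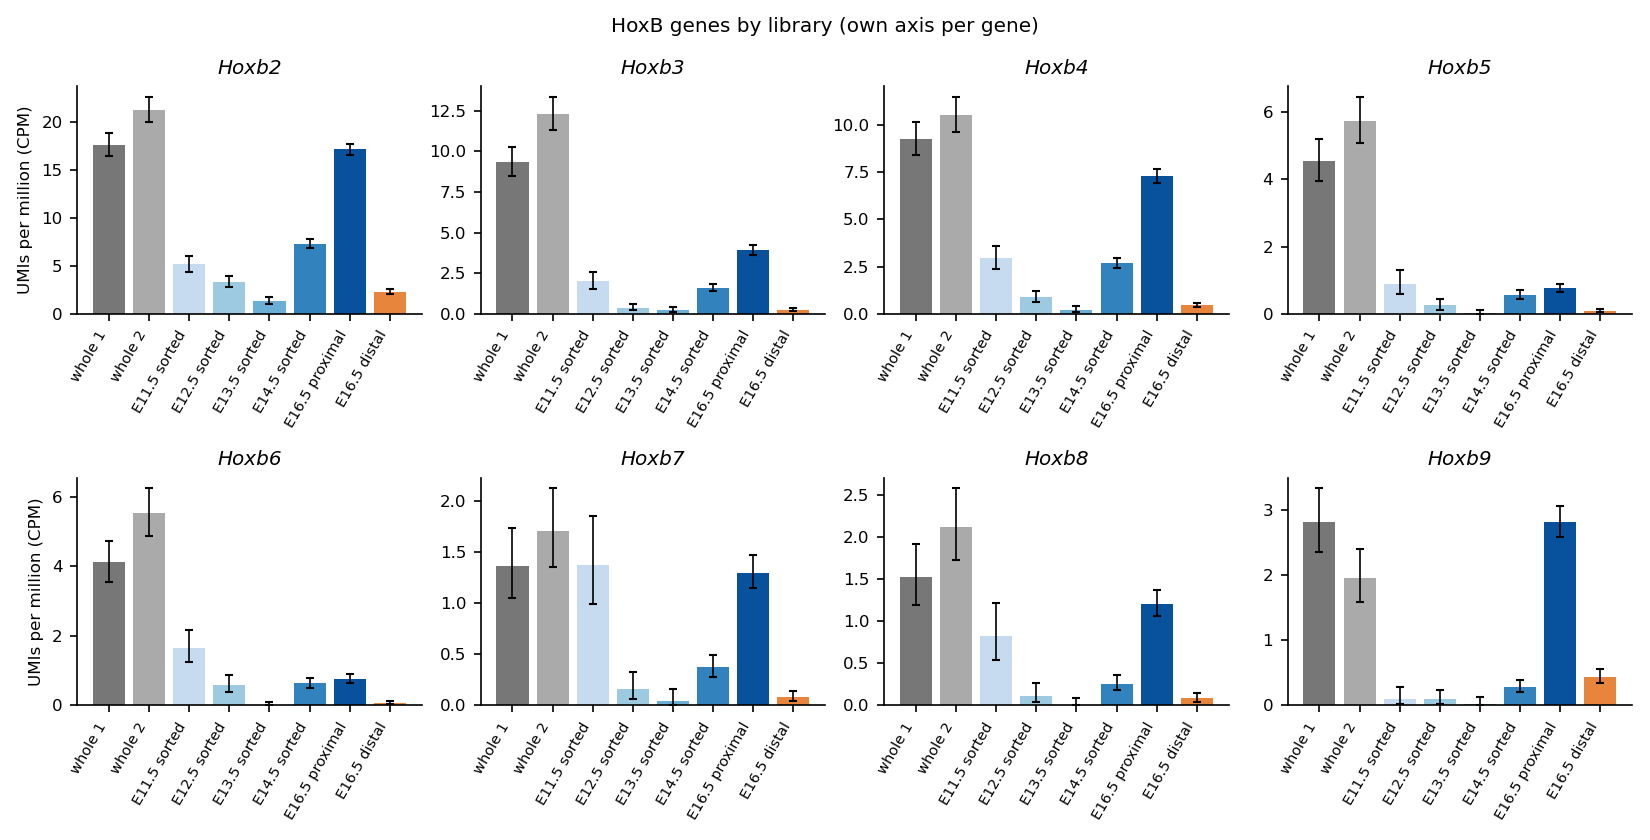
Level of each HoxB gene in the 8 libraries, in CPM over mesenchymal cells, with a separate axis for each gene. Bars are single libraries and error bars are 95% Poisson intervals; every gene is lowest at E13.5 and all but Hoxb9 are highest in whole 2.

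Hoxb2, known for patterning the hindbrain, supplied the most UMIs in every library, between 34.5% and 72.1% of the sum, so it weighs most in the sum. The sum did not follow it throughout: E13.5 was 3.78-fold below E11.5 sorted cells for Hoxb2 and 7.89-fold for the sum. The level of Hoxb2 was 17.7 and 21.3 CPM in whole 1 and whole 2. It was then 5.17, 3.32, 1.37 and 7.28 CPM in sorted cells from E11.5 to E14.5, and 17.1 and 2.30 CPM in the proximal and distal segments. The E16.5 proximal level was near that of whole 1. Stage, reagent kit and part of the limb differ between the E11.5 and E16.5 proximal libraries, and for whole limbs the sort too. For no member can these be told apart.

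Hoxb3 and Hoxb4, the next members along the cluster, had a similar shape with a deeper trough, on 10 UMIs each at E13.5. Hoxb3, which also acts in hindbrain segments, stood at 9.35 and 12.3 CPM in whole limbs, at 2.01, 0.362, 0.220 and 1.62 CPM from E11.5 to E14.5, and at 3.92 and 0.242 CPM in the E16.5 segments. Hoxb4, widely known for expanding blood stem cells, was at 9.24 and 10.5 CPM in whole limbs, at 2.93, 0.882, 0.220 and 2.68 CPM from E11.5 to E14.5, and at 7.30 and 0.453 CPM in the segments. In the E16.5 proximal segment Hoxb4 was nearer to its whole 1 level than Hoxb3 was to its own.

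Hoxb5 and Hoxb6 stayed low in the E16.5 segments. Hoxb5, a gene that helps set the level of the shoulder girdle, was at 4.55 and 5.73 CPM in whole limbs, at 0.893, 0.249, 0.0220 and 0.551 CPM from E11.5 to E14.5, and at 0.764 and 0.0893 CPM in the E16.5 segments. Hoxb6, a marker of lateral plate mesoderm, was at 4.12 and 5.54 CPM in whole limbs, at 1.66, 0.588, 0 and 0.634 CPM from E11.5 to E14.5, and at 0.769 and 0.0574 CPM in the segments. The proximal segment was below E11.5 sorted cells for both genes and for Hoxb7 (1.30 against 1.37 CPM). It was above them for Hoxb2, Hoxb3, Hoxb4, Hoxb8 and Hoxb9. The intervals overlapped for Hoxb5, Hoxb7 and Hoxb8.

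Hoxb7 and Hoxb8, the members next to Hoxb9, were low throughout, with 517 and 491 UMIs in all. Hoxb7, whose promoter is widely used to mark the ureteric bud of the kidney, was at 1.36 and 1.71 CPM in whole limbs, at 1.37, 0.158, 0.0441 and 0.370 CPM from E11.5 to E14.5, and at 1.30 and 0.0829 CPM in the segments. It was the only member whose E11.5 sorted value lay between the values of both whole-limb libraries. Hoxb8, known from myeloid progenitors, was at 1.53 and 2.13 CPM in whole limbs, at 0.829, 0.113, 0 and 0.257 CPM from E11.5 to E14.5, and at 1.21 and 0.0829 CPM in the segments.

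Hoxb9, which acts with its paralogs on the thoracic skeleton, differed from the other members. It was at 2.80 and 1.96 CPM in whole limbs but at only 0.0957, 0.0905 and 0.0220 CPM at E11.5, E12.5 and E13.5, on 3, 4 and 1 UMIs, then at 0.287 CPM at E14.5 and at 2.81 and 0.434 CPM in the E16.5 segments. It was also the only member lower in whole 2 than in whole 1, with a ratio of 0.698 (0.530 to 0.917), while the ratios of the other 7 ran from 1.14 to 1.39. Between these 2 libraries 0 of the 8 members differed 2-fold, against 0.169% of 11837 genes.

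The whole-limb libraries show where in the E11.5 limb bud HoxB transcripts were. Cells were clustered without Hox genes, and clusters were named from marker lists. The proximal anterior limb bud mesenchyme-like clusters, marked by Meis1, Meis2, Irx3, Irx5 and Pax1, held 71.8% and 78.5% of the HoxB UMIs of whole 1 and whole 2 in 19.2% and 21.3% of the cells. Their summed level was 200 CPM (191 to 210) and 235 CPM (226 to 244). The distal limb bud mesenchyme-like clusters, marked by Lhx2, Lhx9 and Msx1, held 8.38% and 6.31% of the UMIs in 39.2% and 36.6% of the cells, at 9.56 and 9.12 CPM. As clusters come from the same cells, these differences are described without a test.

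Among single clusters the sum was highest in that led by Pax1, Irx3 and Irx5, at 226 CPM (212 to 240) and 277 CPM (263 to 291). There 67.0% and 70.1% of cells had a HoxB UMI before thinning, in 424 and 521 cells. A further Pax1 cluster, led by AI646519 and Dusp2, was at 202 and 227 CPM, and a cluster led by Calb2 and Lum at 130 and 137 CPM. Outside the proximal anterior class the highest of the clusters with at least 50 cells were a small cluster led by En1 and Rarres2, at 49.2 and 45.04 CPM, and the myogenic-like cluster, at 40.8 and 49.8 CPM. Posterior limb bud mesenchyme-like clusters, marked by Hand2 and Tbx2, were at 17.5 to 28.7 CPM, and chondrocyte-like clusters at 11.02 to 20.5 CPM. Every proximal anterior cluster was thus above every other cluster of at least 50 cells in both libraries. Of the smaller clusters, endothelial-like cells (19 and 24) were at 82.0 (49.4 to 128) and 82.8 CPM (51.2 to 127), and the Hbb-y cluster at 121 (90.0 to 160) and 54.6 CPM (31.8 to 87.3).

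HoxB genes were also seen together in the same cells there. At 3000 UMIs, 39.0% and 42.0% of proximal anterior cells held at least 1 of the 8 genes, 12% and 14.5% at least 2, and 2.67% and 4.29% at least 3. In distal cells these shares were 2.57% and 2.36% for at least 1 and 0.0467% and 0.241% for at least 2.

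Members differed among the proximal anterior clusters. Hoxb5 was at 24.6 and 30.3 CPM in the Pax1, Irx3 and Irx5 cluster and at 5.31 and 7.49 CPM in the Calb2 and Lum cluster. Hoxb7 went the other way, with 5.37 and 7.199 CPM in the former and 7.67 and 10.98 CPM in the latter, its highest cluster in both libraries. Hoxb2 followed Hoxb5 in direction, with 80.1 and 92.6 CPM against 41.9 and 46.9 CPM.

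Hoxb9 was placed opposite to the other 7 genes. In the Pax1, Irx3 and Irx5 cluster it had 1 and 2 UMIs (0.224 and 0.379 CPM), whereas it was highest, at 8.19 and 7.202 CPM, in a distal cluster led by Tfap2b, Hoxd13 and Evx2, and at 5.50 and 3.39 CPM in another led by Tfap2b, Hoxd13 and Lmo2. Hoxb2 was at 0.535 to 2.92 CPM in these clusters. High Hoxb9 was not shared by all distal clusters or kept to them: it was at 0.751 to 1.497 CPM in the distal clusters led by Pax9 and by Gata6, and at 6.85 and 3.40 CPM in a chondrocyte-like cluster led by Fxyd3 and Lect1. Across the clusters of both whole-limb libraries (30 summed profiles, log2(CPM + 1)), Pearson's r between the 21 pairs of Hoxb2 to Hoxb8 ran from 0.68 to 0.96, and between Hoxb9 and each of the 7 others from -0.57 to -0.22. These are descriptions over clusters that share libraries. In the sorted libraries (55 summed profiles) the 7 pairs with Hoxb9 ran from 0.48 to 0.73 and the 21 others from 0.64 to 0.92. Those profiles span 6 libraries with different HoxB levels. Their r can follow differences between libraries, so it is not comparable with that of the whole-limb clusters and does not show placement within a limb.

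**Figure D2:**
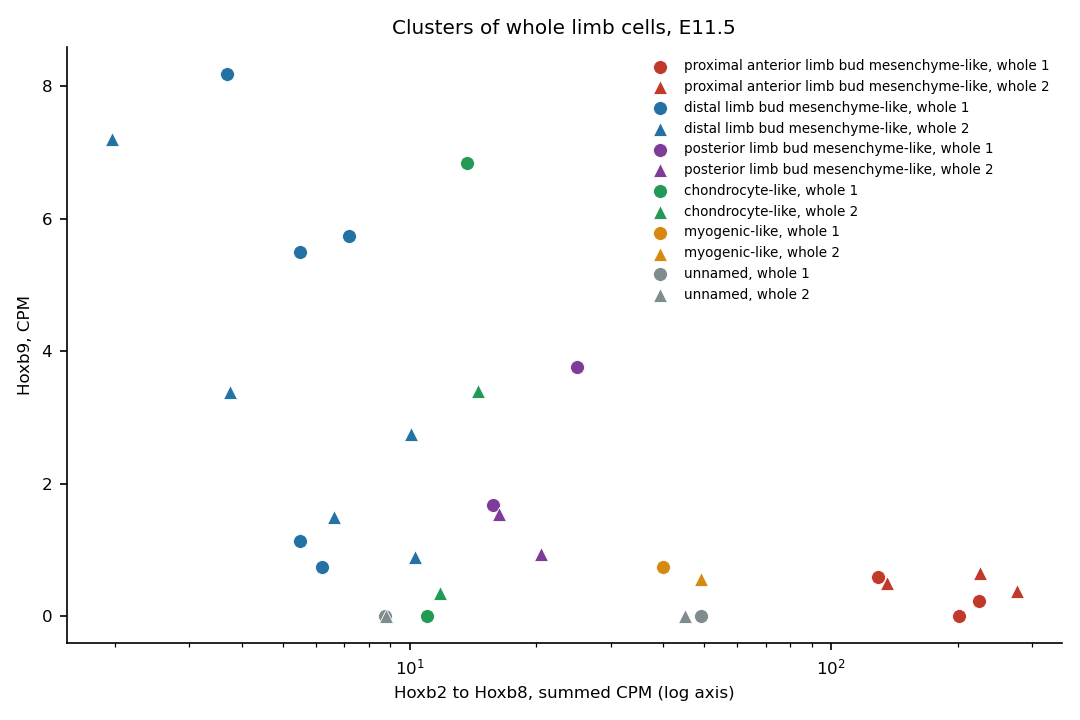
Hoxb9 (vertical axis, CPM) against the summed level of Hoxb2 to Hoxb8 (horizontal log axis, CPM) in clusters of whole-limb E11.5 cells; circles are clusters of whole 1 and triangles of whole 2, coloured by class. Proximal anterior clusters lie at the lower right with Hoxb9 under 1 CPM, and Hoxb9 is highest in a distal cluster at the upper left (8.19 and 7.202 CPM).

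Position read from a few genes, rather than from clusters, gave the same picture. Meis1 and Meis2, and Pax1 and Pax9 used for the other axis, are also among the markers that named the proximal anterior clusters. The strata are therefore no independent reading of position. Cells thinned to 3000 UMIs were put in a proximal stratum with a UMI of Meis1 or Meis2 and none of Hoxa13 or Hoxd13, and in a distal stratum the other way round. The HoxB sum was 158 CPM in 1142 proximal cells and 10.9 CPM in 1069 distal cells of whole 1, a ratio of 14.5 (12.1 to 17.5). In whole 2 it was 177 CPM in 1309 cells and 9.17 CPM in 986 cells, a ratio of 19.3 (15.7 to 24.0). Hoxb2 had ratios of 24.8 and 35.1. Hoxb9 was reversed, at 0.773 against 6.11 CPM in whole 1 (ratio 0.126, 0.0491 to 0.274) and 0.194 against 4.63 CPM in whole 2 (ratio 0.0419, 0.00494 to 0.160).

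Along the other axis, cells with Pax1, Pax9 or Alx4 and neither Hand2 nor Tbx2 formed an anterior stratum, and the converse a posterior one. The HoxB sum was 248 against 27.9 CPM in whole 1 and 266 against 25.4 CPM in whole 2, or 8.91 (7.78 to 10.2) and 10.5 (9.15 to 12.04) times as high anteriorly. Hoxb6 had the highest ratios of the 8 genes in both libraries, 19.7 (11.3 to 36.2) and 21.4 (12.3 to 39.9). Hoxb9 was again reversed in whole 1, at 0.382 against 3.93 CPM (ratio 0.0971, 0.00241 to 0.570), and in whole 2 its ratio of 0.417 had an interval that includes 1 (0.0808 to 1.36).

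Sorted libraries had the same proximal-distal direction. The ratio was 3.63 (1.74 to 9.11) in E11.5 cells, with 7 UMIs in 40 distal cells, and 27.2 (19.9 to 38.1) in E14.5 cells. At E16.5 it was 3.84 (2.39 to 6.60) in the proximal and 24.1 (16.8 to 35.1) in the distal segment, where 214 proximal-stratum cells were at 27.3 CPM and 2125 distal-stratum cells at 1.13 CPM. Hoxb9 was now on the side of the other members at E16.5, with ratios of 3.58 (0.977 to 29.8) and 4.04 (1.27 to 11.2). The anterior-posterior ratio of the sum was 3.78 (3.05 to 4.69) in E14.5 cells, 1.44 (1.20 to 1.71) in the E16.5 proximal segment and 0.727 (0.423 to 1.19) in the distal segment, where the interval includes 1. Pax1, which helps define the anterior stratum, was also among the leading genes of the E14.5 dermal fibroblast-like cluster and of an E16.5 distal cluster led by Sp9. Position and cell type therefore cannot be told apart in these ratios.

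Muscle precursors, which migrate into the limb from the somites, carried a different mix of HoxB genes. In myogenic-like cells (314 and 293) the sum was 0.806 (0.684 to 0.944) and 0.813 (0.695 to 0.947) of that in mesenchymal cells. Hoxb6 was higher in muscle precursors, at 7.96 against 4.12 CPM in whole 1 and 11.8 against 5.54 CPM in whole 2, ratios of 1.93 (1.28 to 2.82) and 2.13 (1.501 to 2.96). Hoxb2 had ratios of 1.03 (0.798 to 1.31) and 0.938 (0.726 to 1.19). Hoxb4, at 0.457 and 0.454, and Hoxb5, at 0.438 and 0.344, were lower.

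The comparison of sorted with whole-limb cells at E11.5 asks how Hic1-lineage cells differ from the limb bud at large, and it is the only comparison with a replicated group. In edgeR's quasi-likelihood test with Benjamini-Hochberg adjustment over 15177 genes, 7 of the 8 HoxB genes were lower in sorted cells, against 26.3% of all genes tested and 53.1% called in either direction. Hoxb2 fell by 2.09 ± 0.16 (SE) on the log2 scale (162 UMIs sorted, 831 and 1011 whole, adjusted p = 6.1e-36), Hoxb3 by 2.61 ± 0.20 (adjusted p = 2.1e-36) and Hoxb4 by 1.93 ± 0.19 (adjusted p = 8.3e-23). All 3 sorted values lay below both whole-limb values. Hoxb5 fell by 2.70 ± 0.26 (adjusted p = 1.6e-23), Hoxb6 by 1.72 ± 0.23 (adjusted p = 1.2e-12) and Hoxb8 by 1.31 ± 0.33 (adjusted p = 0.00021). DESeq2 did not call Hoxb8 (adjusted p = 0.072). In cells of the proximal stratum alone, 5 of the 7 members tested were called lower by edgeR, against 2022 of 12707 genes lower and 31% called in either direction. Hoxb8 was lost there (log2 -1.002, adjusted p = 0.067), Hoxb7 was again not called, and Hoxb9 had too few UMIs for the filter. Hoxb9 had the largest fitted difference, on 3 UMIs in sorted cells against 132 and 93: it was 29.3-fold (9.82 to 144) and 20.5-fold (6.79 to 101) lower than in whole 1 and whole 2 by counting alone (adjusted p = 3.8e-20 in edgeR). Hoxb7 did not pass, with a log2 difference of -0.34 ± 0.30 (adjusted p = 0.354). Of the calls over all genes 50.4% were higher in sorted cells, and 68.1% were with library totals in place of TMM, which moved the median of all genes from 0.01 to 0.19 (log2) and still called the same number of HoxB genes. The test has 1 residual degree of freedom and assumes that the lone sorted library varies like the whole-limb ones.

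The sorted library held few cells of the clusters in which HoxB levels were highest in whole limbs. The Pax1-led clusters had 10 and 11 sorted cells. In the 2 other clusters in which all 3 libraries had at least 50 cells, the levels lay closer together than those of the libraries. In the Calb2 and Lum cluster (67 sorted cells) the sum was 103 CPM (82.8 to 127), which is 0.795 (0.614 to 1.02) of whole 1 and 0.754 (0.587 to 0.961) of whole 2. In the En1 and Rarres2 cluster (250 sorted cells) it was 40.2 CPM (33.4 to 47.9), with ratios of 0.816 and 0.892 whose intervals include 1. These 67 and 250 cells, 2.12% and 7.90% of the library, held 18.7% and 26.1% of its HoxB UMIs. The 2 main sorted clusters, led by Hist1h2ap, Iffo1 and Kera (1126 cells) and by Ntrk2, Col8a1 and tdTomato (1628 cells), were at 8.97 and 5.08 CPM. When the proximal anterior clusters were left out of all 3 libraries, an alternative chosen after seeing the data, only Hoxb9 remained lower (log2 -5.56) and Hoxb7 was higher (log2 1.18, adjusted p = 0.047), while the other 6 were not called. In that setting 54% of 14821 genes were called, 4039 higher and 3958 lower.

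**Figure D3:**
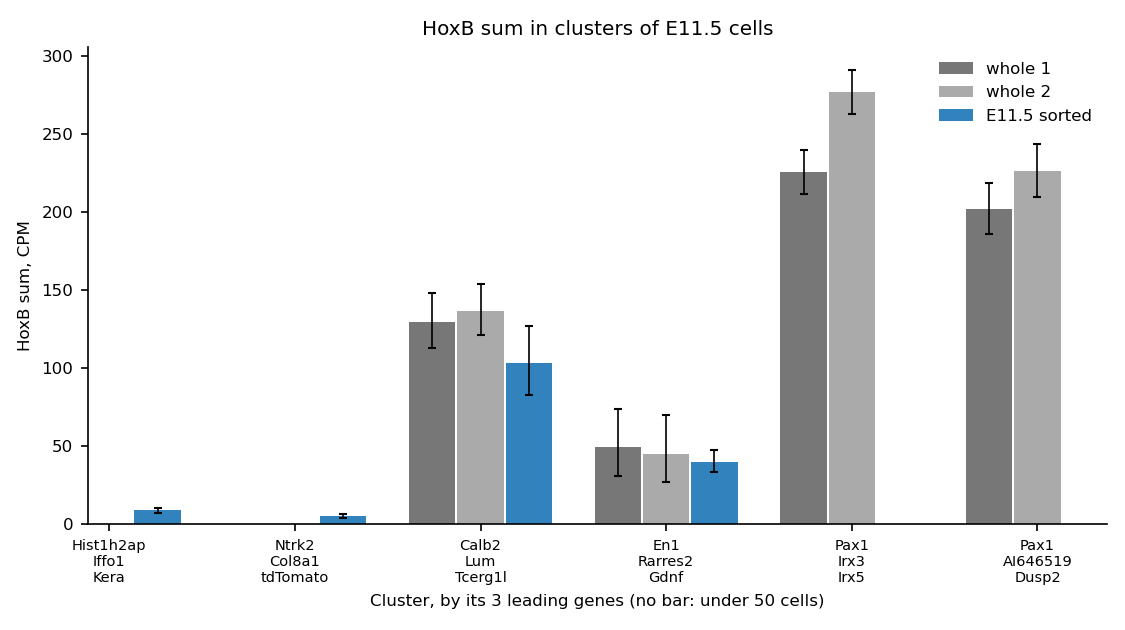
Summed level of the 8 HoxB genes (CPM, 95% Poisson intervals) in clusters of E11.5 cells, for whole 1, whole 2 and the sorted library; a missing bar means under 50 cells. The Pax1-led clusters, at 202 to 277 CPM, have bars only for whole limbs, and the main sorted clusters stand at 8.97 and 5.08 CPM.

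The other Hox clusters also held more genes lower than higher in this test. Of 11 HoxA genes tested 0 were higher and 9 lower (median log2 -0.81), of 8 HoxC genes 0 and 7 (median -1.70), and of 9 HoxD genes 2 and 5 (median -0.47), against 26.7% of all genes higher, beside a median of -2.01 for HoxB and 0.01 for all genes. Hoxa13 (log2 -5.12) and Hoxd13 (-4.19) had the largest differences of their clusters, and Hoxc9 (-2.94) that of HoxC. Among Hox cofactors 2 were higher and 5 lower of 9, and among known regulators of Hox genes 3 and 11 of 17. Cyp26a1, which degrades retinoic acid, had the largest fitted difference of these regulators (log2 -6.64), on 0 sorted UMIs against 15 and 12 in whole limbs. Aldh1a2, which makes retinoic acid, was higher in sorted cells (log2 3.03), on 1553 UMIs against 225 and 281. The antisense gene Hoxb3os was higher in sorted cells (0.42 ± 0.17, adjusted p = 0.030).

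Between E11.5 and E13.5 the sorted cells, all counted with the same reagent kit, differed in HoxB level by 7.89-fold (6.26 to 10.1), with the lower sum at E13.5. Genes were called at 2-fold where they had 100 UMIs over both libraries. A gene with few UMIs in the lower library passes that limit only by being high in the other, so that the limit itself fixes its call. Of the members with 100 UMIs only Hoxb2 was free of this, and it was 3.78-fold (2.81 to 5.15) lower, against 4.31% of 12422 genes called lower. Hoxb4, on 10 UMIs at E13.5 and 92 at E11.5, was 13.3-fold (6.92 to 28.7) lower, and with 10 UMIs the limit alone required 13-fold. With fewer counts, Hoxb3 was 9.12-fold (4.65 to 19.9) lower, Hoxb7 31.1-fold (8.11 to 265) lower on 2 UMIs at E13.5, and Hoxb5 40.5-fold (6.70 to 1657) lower on 1. Hoxb6 and Hoxb8 had 0 UMIs at E13.5 and were 25.1-fold and 12.5-fold lower when 3 UMIs were put in place of 0. These values have no interval and ignore counting error at E11.5. Hoxb9 had 3 and 1 UMIs, too few for a fold.

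Both steps went the same way. E12.5 was at 0.386 (0.330 to 0.450) of E11.5, and Hoxb2, at 0.644 of E11.5, did not reach 2-fold, which 1.82% of genes did in this direction. Hoxb4, on 39 and 92 UMIs, was past 2-fold, as the limit of 100 UMIs required of it. E13.5 was at 0.329 (0.254 to 0.421) of E12.5, where Hoxb2, the only member with enough UMIs, was 2.43-fold (1.80 to 3.33) lower, against 2.23% of genes. Dissociation changed from Dispase to Collagenase and Pronase between these stages, and its part cannot be told apart from that of stage. In the 2 clusters that E11.5 and E12.5 shared, led by Hist1h2ap and Aurka and by Egr4 and Igdcc3, the sum was at 0.466 (0.368 to 0.587) and 0.275 (0.130 to 0.516). Of 5 clusters shared by E12.5 and E13.5, that led by Stmn2 had at most 3 UMIs in both libraries, and the other 4 had ratios of 0.260 to 0.529, with 3 intervals below 1. The later stage was thus lower within clusters as well as over the library.

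Meis2 and Meis1 were also lower at E13.5 than at E11.5 (log2 -2.16 and -2.07), the largest differences among 9 cofactors. Other Hox clusters were less even: 0 HoxA genes were higher and 2 of 6 lower, 0 HoxC genes higher and 2 of 3 lower, and of 7 HoxD genes 3 were lower and 1, Hoxd13, higher (log2 1.76), against 8.37% of all genes higher. The median over all genes was -0.05.

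From E13.5 to E14.5 the sum was 7.22-fold (5.81 to 9.07) higher, and Hoxb2 (62 and 964 UMIs) was at least 2-fold higher, against 7.02% of 13983 genes. Hoxb3 and Hoxb4 also passed, with 10 UMIs each at E13.5 and 214 and 355 at E14.5, but at 10 UMIs the limit of 100 fixed their calls. By the study's methods the reagent kit changed between these stages, from v2 to v3, and kit and stage cannot be told apart.

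At E14.5 most HoxB transcripts were in dermal cells. The dermal fibroblast-like cluster, led by Calb1, Rspo1 and Nrgn, held 59.4% of HoxB UMIs in 13.8% of the cells, at 57.1 CPM (53.9 to 60.5). The remaining clusters of at least 50 cells were at 0.492 to 8.56 CPM, lowest in the cluster led by Hoxa13 and Ephb1 and highest in a large cluster led by Nefm and Dkk2. Smaller groups were higher than these. The epithelial-like cells, 70 in 2 clusters (32 led by Krt14 and Krt15, 38 by Krt1 and Calm4), were at 120 CPM (104 to 138) and held 9.63% of HoxB UMIs in 0.835% of the cells. They were above the dermal level, with Hoxb2 at 65.9 CPM, Hoxb3 at 19.9 CPM and no UMI of Hoxb9, and 25.7% of them had a HoxB UMI at 3000 UMIs. Pericyte-like cells (40) were at 37.5 CPM (27.4 to 50.2). Hoxb4 in dermal fibroblast-like cells was at 12.7 CPM and Hoxb2 at 28.1 CPM.

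Between E14.5 and the E16.5 proximal segment, counted with the same kit, the sum was 2.57-fold (2.44 to 2.71) higher, and 6 of 8 members were at least 2-fold higher, against 8.15% of 14943 genes. The ratio was highest at the Hoxb9 end of the cluster. Hoxb9 was 9.80-fold (7.05 to 14) higher, Hoxb8 4.70-fold (3.27 to 6.94) and Hoxb7 3.50-fold (2.57 to 4.86). Hoxb4, Hoxb3 and Hoxb2 were 2.72-, 2.42- and 2.36-fold higher. Hoxb5 was 1.39-fold (1.04 to 1.86) and Hoxb6 1.21-fold (0.923 to 1.60) higher, and neither reached 2-fold. The E14.5 library held whole forelimbs and the E16.5 proximal library lacked the autopod, so stage and part of the limb cannot be told apart. In cells of the proximal stratum alone the sum was 1.15-fold higher, and Hoxb2, Hoxb5 and Hoxb6 were at 0.942, 0.838 and 0.524 of E14.5. There Hoxb3 and Hoxb4 were 1.21- and 1.09-fold higher, and only the ratios of Hoxb7 (2.16-fold), Hoxb8 (2.99-fold) and Hoxb9 (7.41-fold) stayed past 2-fold. Hoxb8 had too few UMIs in this stratum for the UMI limit of a 2-fold call. That limit fixed the calls of Hoxb7 and Hoxb9, given their few E14.5 UMIs in the stratum. No member was thus called there free of the limit. Hoxa13 and Hoxd13 were lower in the same comparison (log2 -5.04 and -4.88).

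In the dermal fibroblast-like class the sum was 57.2 CPM at E14.5 and 114 CPM at E16.5, 2.00-fold (1.87 to 2.14) higher, in 1158 and 1495 cells. Different clusters held the class at each stage: 1155 of the E14.5 cells were in that led by Calb1 and Rspo1, which had 4 E16.5 cells, and 342 and 1149 of the E16.5 cells were in 2 led by Col7a1 and Cldn10 (146 and 100.2 CPM), which had 2 and 1 E14.5 cells. Hoxb9 differed the most of the 8 genes, at 0.861 and 18.6 CPM, 21.6-fold (13.5 to 36.8) higher, on 18 and 514 UMIs. Hoxb8 was at 1.34 and 6.70 CPM, 5.004-fold (3.35 to 7.74) higher, and Hoxb7 was 2.94-fold (2.00 to 4.42) higher. Hoxb4 was 2.03-fold higher (12.7 and 25.9 CPM) and Hoxb3 1.86-fold, Hoxb2 1.34-fold (1.21 to 1.49), Hoxb5 1.45-fold and Hoxb6 1.35-fold (0.989 to 1.84). Past 2-fold were Hoxb4, Hoxb7 and Hoxb8, against 4.87% of 11324 genes higher in these cells, and Hoxb9, whose call was fixed by the limit of 100 UMIs given its 18 UMIs at E14.5.

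**Figure D4:**
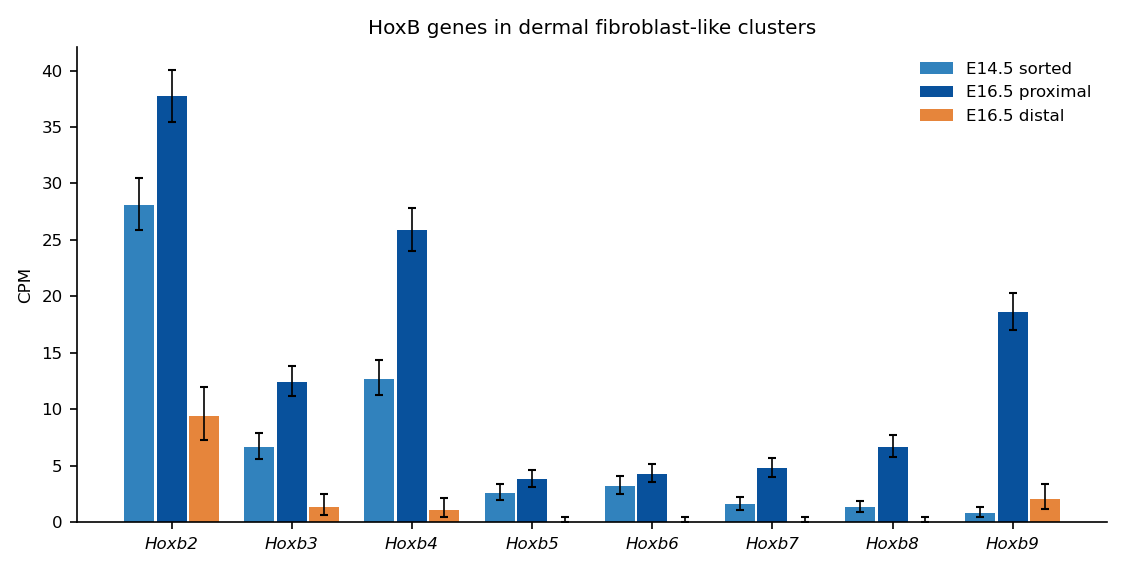
Level of each HoxB gene (CPM, 95% Poisson intervals) in dermal fibroblast-like cells at E14.5, in the E16.5 proximal segment and in the E16.5 distal segment. The first 2 groups come from the clustering of the stages (1158 and 1495 cells) and the distal one from the clustering of both segments (445 cells), so they are not defined alike. Hoxb9 stands at 0.861, 18.6 and 2.08 CPM, and in the clustering of both segments the proximal value was 19.2 CPM.

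Epithelial-like cells, which the values below leave out, were at 20.3 CPM (18.8 to 21.8) in the E16.5 proximal segment, below their E14.5 level given above. Among mesenchymal cells outside the dermal fibroblast-like class the sum was higher. It was 4.08-fold higher when the 1158 and 1495 dermal fibroblast-like cells above were left out, and 5.13-fold when those at E16.5 were taken from the clustering of both segments, which leaves the histone-led cells in. Both are alternatives chosen after seeing the data. In the former Hoxb4 was 5.39-fold and Hoxb2 4.10-fold higher, and Hoxb9 1.496-fold. In a shared cluster led by Kpna2 and Hist1h2ag it was 3.77-fold (2.87 to 4.95) higher. Among the other Hox clusters, HoxC had 2 genes higher (Hoxc8, log2 1.57, and Hoxc9, 2.39, the latter fixed by the limit of 100 UMIs) and 1 lower of 5, HoxA 0 higher and 3 lower of 10, and HoxD 0 higher and 4 lower of 9, against 10.3% of all genes lower. The median over all genes was -0.18.

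The comparison of E16.5 segments asks how the elbow region and the distal forelimb differ late in development. The sum was 9.41-fold (8.65 to 10.3) lower in the distal segment (a ratio of 0.106, and 0.0524 in fibroblast-like cells only), and Hoxb2, Hoxb3, Hoxb4 and Hoxb9 were at least 2-fold lower, against 4.98% of 15038 genes. Hoxb5, Hoxb6, Hoxb7 and Hoxb8 had 14, 9, 13 and 13 distal UMIs against 152, 153, 258 and 240 proximal ones, counts at which the limit of 100 UMIs fixed their calls. Hoxb3 was 16.2-fold (11.7 to 23.0), Hoxb4 16.1-fold (12.7 to 20.8) and Hoxb7 15.6-fold (8.99 to 29.8) lower. Hoxb8 was 14.5-fold, Hoxb6 13.4-fold and Hoxb5 8.56-fold lower. Hoxb2, 7.45-fold (6.68 to 8.33), and Hoxb9, 6.49-fold (5.04 to 8.48), differed least. The distal library was counted with Cell Ranger 6.0.1 and the proximal one with 3.0.2, and this proximal library is also the one set against E14.5.

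The difference was present in most clusters that both segments shared. Large distal clusters led by Ephb1 (1558 distal cells), Sp9 (1347), Btc (803), Cldn3 (486) and Sema3e (350) had at most 20 proximal cells each. They could not be compared. Of 12 clusters with at least 50 cells in both segments, 10 had a lower sum distally with an interval that excluded 1, by 2.45- to 16.9-fold. It was smallest in tenocyte-like cells led by Col22a1 (11.95 against 29.3 CPM, with 24 of 26 distal UMIs in 5 of 73 cells) and largest in a histone-led dividing cluster (8.65 against 146 CPM, 335 and 343 cells). In the clustering of the stages, 342 proximal cells of a histone-bearing cluster, also at 146 CPM, were named dermal fibroblast-like, and whether the dividing cluster holds the same kinds of cell in both segments was not tested. Pericyte-like cells were at 3.25 against 51.3 CPM and chondrocyte-like cells at 0.586 against 8.21 CPM, the former 15.8-fold lower. The distal chondrocyte-like value rests on 1 UMI in 81 cells, and the distal osteogenic-like and Sfrp4-led clusters held 7 and 5 UMIs. The Rit2 and Ednrb cluster had 0 and 6 UMIs, too few for a call.

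In the exception, a cluster led by the muscle protein genes Acta1, Tnnc2 and Actc1, the sum was 27.4 against 24.2 CPM, a ratio of 1.13 (0.872 to 1.45), in 110 distal and 2403 proximal cells. The 67 distal UMIs came from 22 cells, and 34 of them from 5 cells. The distal cells of this cluster were at 11.5 CPM for Hoxa13 and Hoxd13 together and at 61.4 CPM for Meis1 and Meis2, against 2.58 and 42.8 CPM in the proximal cells. The distal osteogenic-like cluster, at 1.06 CPM for the HoxB sum, had 270 CPM of Hoxa13 and Hoxd13. The Acta1 cluster was unnamed and not called myogenic. In the clustering of the stages, a cluster led by Actc1, Entpd2 and Acta1 (4494 E16.5 proximal cells) was named fibroblast-like. Whether both hold the same cells was not tested.

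Dermal fibroblast-like cells, with 445 distal and 1133 proximal cells in the clustering of both segments, show the pattern gene by gene. They are not all the distal cells with dermal markers: an unnamed cluster led by Sp9, with 1347 distal and 13 proximal cells, had 8 of the 8 dermal markers raised and was at 4.68 CPM distally, with 16.9% of the distal HoxB UMIs against 16.1% in the named cluster. The sum was 14.04 against 102 CPM, 7.24-fold (5.92 to 8.93) lower. Hoxb2, on 68 and 593 UMIs, was 3.33-fold lower, against 2.17% of 9849 genes called lower at 2-fold. Hoxb3, Hoxb4, Hoxb8 and Hoxb9 also passed the limit of 100 UMIs, with 10, 8, 0 and 15 distal UMIs, at which it fixed their calls. Hoxb4 was at 1.11 against 23.5 CPM, 21.1-fold lower, and Hoxb3 was 7.87-fold lower. Hoxb5, Hoxb6, Hoxb7 and Hoxb8 had no UMI in the distal cells. With 3 UMIs in place of 0 they were 7.77-, 7.90-, 9.81- and 14.1-fold lower, values without an interval. Hoxb9 was 9.20-fold lower. Hoxa13 and Hoxd13 together were at 13.3 against 1.06 CPM in these cells, and Meis1 and Meis2 at 64.9 against 122 CPM.

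**Figure D5:**
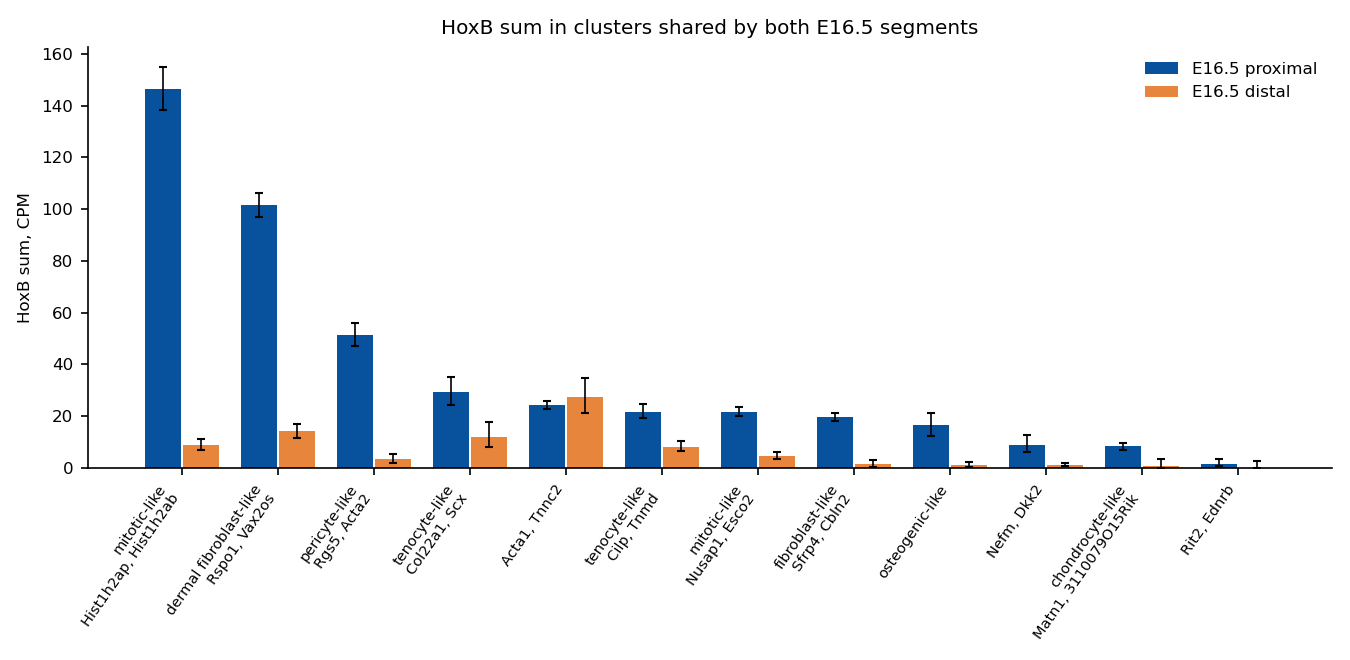
Summed level of the 8 HoxB genes (CPM, 95% Poisson intervals) in the 12 clusters shared by the E16.5 proximal and distal segments, with each cluster named by its class, its leading genes or both. The distal bar is lower in all but the Acta1 and Tnnc2 cluster, at 27.4 against 24.2 CPM, and the last cluster has at most 6 UMIs.

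Within the proximal segment the members were spread unevenly over cell types. Among clusters of at least 50 cells the histone-led one was highest for the sum, at 146 CPM (138 to 155), followed by dermal fibroblast-like cells and by a cluster led by Car3, Agt and Fabp4 at 70.0 CPM. Pericyte-like cells (51.3 CPM) and basal epithelial-like cells led by Krt14 (50.8 CPM) came next. Hoxb9 was at 18.5 CPM in the histone-led and 19.2 CPM in the dermal cluster and at most 1.07 CPM in any other cluster of at least 50 cells, with 0.410 CPM in pericyte-like cells and 0.0686 CPM in the Acta1 cluster. In contrast, Hoxb2 was at 52.7, 31.5, 32.1 and 15.3 CPM in these 4. Clustered with the earlier stages instead, the proximal cells of a histone-bearing cluster led by Cldn10 and Col7a1 (342 cells, 146 CPM) were named dermal fibroblast-like.

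Other Hox genes differed in both directions between the segments. All 5 HoxC genes tested were at least 2-fold lower distally, led by Hoxc8 (log2 -5.53), Hoxc9 (-3.37) and Hoxc4 (-3.22), with the calls of Hoxc8 and Hoxc9 fixed by the limit of 100 UMIs. Of 9 HoxA genes 2 were higher (Hoxa13, 5.96, and Hoxa11, 2.11), against 7.36% of all genes, and 1 lower, and of 9 HoxD genes 3 were higher (among them Hoxd13, 5.31) and 1, Hoxd1, lower (-3.93, fixed by the limit). Of 15 paralogs of HoxB members in the other clusters 0 were higher and 6 lower, 2 of these fixed by the limit (Hoxc8 and Hoxc9), and of 9 cofactors 1 was higher and 4 lower, led by Meis2 (-2.14) and Meis1 (-1.69). The antisense gene Hoxb3os (-1.86) was lower too, as was Hoxb5os (-5.58), whose call the limit fixed. The median over all genes was 0.10.

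Across the 55 summed profiles of library and cluster from the 6 sorted libraries, the genes whose log2(CPM + 1) was most like the HoxB sum were Hoxc4 (Pearson's r = 0.85), Hoxc6 (0.83), Meis2 (0.80), Rbm3 (0.80) and Hint1 (0.74), among 11762 genes. The nearest genes to Hoxb4 were Hoxb3 (0.92), Hoxb2 (0.89), Hoxc4 (0.84), Hoxc8 (0.80) and Hoxc6 (0.79). For Hoxb3 they were Hoxb4 (0.92), Hoxc4 (0.87), Hoxb2 (0.85), Hoxc6 (0.83) and Hoxc8 (0.82), and for Hoxb2 they were Hoxb4 (0.89), Hoxb3 (0.85), Rbm3 (0.83), Hoxc6 (0.82) and Hoxc4 (0.81). Profiles of a library share its depth and its cells' origin, so these values describe the libraries.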

How the data were processed

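UMI counts per gene and cell were deposited by the authors as Cell Ranger matrices aligned to a modified mm10 genome, per the labels and the study's methods. The file headers name Cell Ranger 3.0.2 or 6.0.1 for the sorted libraries. E11.5 to E13.5 libraries used the v2 kit and E14.5 and E16.5 libraries the v3 kit, and E11.5 and E12.5 tissue was dissociated with Dispase, later tissue with Collagenase and Pronase.

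Cells with at least 3000 UMIs and at most 10% mitochondrial UMIs were kept and clustered with scanpy 1.11.5 (resolution 1) without Hox genes. Clusters were named from marker lists, and those named from other lineages were left out as stated. Scrublet called under 0.5% of cells in each library, which means that it did not work, so no doublets were removed in the main values. UMIs were summed per library or cluster. With 1 library per group, ratios of CPM have exact conditional binomial intervals (95%) and no test, and a gene counted as higher or lower at 2-fold with at least 100 UMIs over both libraries. A call was taken as fixed by this limit where the UMIs in the lower library left no way to pass it under 2-fold. E11.5 sorted and whole-limb sums were compared with edgeR 4.0.16 (TMM, adjusted p under 0.05), with DESeq2 1.42.0 and limma 3.58.1 as alternatives, in R 4.3.3. The steps were tested on simulated data. Labels do not say whether whole 1 and whole 2 came from separate litters, so the p-values may measure technical spread. Named genes are the members and, per list, up to 3 genes with the largest differences that passed, with Aldh1a2 named besides. Members, lists and tests were chosen with earlier results of these data known. Some homeobox sequences and the values of a further cluster shared by E14.5 and E16.5 cells are not reported here.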

Additional observations from a re-analysis of the deposited data

Results flagged for a closer look

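In the Acta1, Tnnc2 and Actc1 cluster of E16.5 cells, 3 HoxB genes differed between the segments in the direction opposite to their other clusters. Hoxb4 was 1.89 (1.16 to 2.95) times as high distally, Hoxb7 6.89 (1.92 to 20.6) times and Hoxb8 29.9 (5.81 to 192) times, on 22, 5 and 5 distal UMIs in 110 cells. Hoxb8 had 3 UMIs in the 2403 proximal cells. Hoxb2 in the same cluster was at 0.616 (0.388 to 0.932). The difference between clusters was not tested, and 34 of the cluster's 67 distal HoxB UMIs came from 5 cells.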

How the results depend on the processing

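No paired analysis was possible because the labels number only the whole-limb replicates. Of the alternatives, 41 values of the main comparisons kept their direction, call and rough size and 14 moved. The remaining 1, the count of HoxB genes called without the proximal anterior clusters, fell to 2. For single genes 311 values counted as unchanged, 49 moved, 7 lost their call and 6 turned. At E11.5 unchanged meant the same direction and call, whatever the size. With 1 whole-limb replicate left out it meant the same direction only. The E16.5 distal to proximal ratio (0.106) was 0.120 with all cell types and 0.0524 in fibroblast-like cells only. The E13.5 to E11.5 ratio (0.127) was 0.187 with cells thinned to 3000 UMIs and 0.161 as the mean CPM of single cells. The E16.5 proximal to E14.5 ratio (2.57) was 2.88 thinned, 2.20 with all cell types, 1.15 in the proximal stratum, 2.81 as the mean CPM of cells, 2.91 with TMM factors and, by alternatives chosen after seeing the data, 2.00 in dermal fibroblast-like cells, 4.08 without those cells and 5.13 without the E16.5 dermal cells of the clustering of both segments and those of E14.5. In the proximal stratum Hoxb2 (0.942) and Hoxb5 (0.838) turned, and Hoxb6, whose 1.21 had an interval that included 1, was at 0.524. The myogenic ratio (0.809) was 0.903 thinned, and the proximal to distal ratio at E11.5 (16.9) was 24.95 with at least 2 UMIs for a stratum. Without either replicate these 2 ratios ran from 0.806 to 0.813 and from 14.5 to 19.3.

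Of the 8 members, 7 were called at E11.5 in the main test, which called 8055 genes in all; DESeq2 called 4881, the fit with no low-count filter 4183 and the proximal stratum 3938. DESeq2 and the fit with no low-count filter called 6 members, both losing Hoxb8 (adjusted p = 0.072 and 0.087), the proximal stratum 5 of 7 tested, and cells outside the proximal anterior clusters 2, where Hoxb4 (log2 0.29), Hoxb6 (0.55) and Hoxb7 (1.18) turned. Leaving out whole 2 or whole 1 left 6 or 7 members at least 2-fold lower, a value of 1 library against 1 with no test, and Hoxb7 ranged from -0.32 to 0.012 (log2). Low counts limit Hoxb3 and Hoxb5 to Hoxb9 at E12.5 and E13.5, where each had at most 26 UMIs. They also limit Hoxb4 at E13.5, on 10 UMIs. With the Hbb-y cluster also left out, an alternative chosen after seeing the data, 7 members were called. The cause of these moves was not tested.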
